A study of Mus musculus with 6 samples.

Results

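The replication-dependent histone genes are the 67 protein-coding genes of the mouse that carry, as current symbol or synonym, a name starting with Hist1h, Hist2h, Hist3h or Hist4h, out of 21883 protein-coding genes on the autosomes, X and Y. The gene table uses the newer names (H2bc11 for Hist1h2bj, for example), so all 67 were found through their synonyms. Open chromatin at these genes was read from ATAC-seq, in which the Tn5 transposase inserts adapters into accessible DNA, in splenic immature B cells, sorted as B220+CD93+. All mice were of the Tcrd-GDL strain, in which γδ T cells carry the receptor for diphtheria toxin (DTx). The study compared 3 libraries from mice given DTx with 3 from untreated mice of the same strain. DTx was given at 15 ng per gram of body weight in 2 injections 48 h apart, and the cells were taken on day 8 after the first. The age and sex of the mice were not given in the sources used here, and the labels do not say that the libraries of a group came from separate mice, so the spread between them may be technical.

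Replication-dependent histone genes encode the bulk of the H2A, H2B, H3, H4 and linker H1 proteins that package newly copied DNA. They are transcribed mainly in S phase, have no introns as a rule, and make mRNAs that end in a stem-loop instead of a poly(A) tail. The genes lie in clusters, and in the nucleus these clusters gather in histone locus bodies organised by NPAT. Many H2A and H2B genes sit head to head and share the DNA between their start sites. Immature B cells of the spleen, also called transitional B cells, are recent emigrants from the bone marrow.

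The Hist1 cluster held 54 of the 67 genes on chromosome 13, between positions 21715711 and 23934913 of mm10. Of these, 23 lay up to position 22043658 and 31 from position 23531044 on, with a gap of 1487385 bp between the groups. Hist2 held 10 genes within 50.3 kb of chromosome 3, Hist3 held H2aw and H2bu2 on chromosome 11, and Hist4 held H4f16 on chromosome 6. By type there were 6 H1, 18 H2A, 18 H2B, 12 H3 and 13 H4 genes. The median length of a gene was 492 bp, and 6 genes were annotated as longer than 2 kb.

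Promoter sequences are shown for the genes with the strongest peaks and for genes with none at their promoter, because their letters frame the results that follow. RefSeq's promoter table of GRCm38.p6 (mm10) runs from 250 bases before to 50 after the start site and had an entry for 62 of the 67 genes. The 4 motifs searched on both strands were the TATA box, spelled TATAAA, the CCAAT box, spelled by its name, the octamer bound by POU-family factors, spelled ATTTGCAT, and the core of the H4 subtype element, spelled GGTCC. Capitals mark these motifs or their reverse complements, and a match describes the letters only. H2bc11 (chr13:22042948-22043247, plus strand) and its head-to-head neighbour H2ac11 had the strongest peak among the H2A and H2B genes, by the lowest percentile over the 6 libraries, the measure by which genes are ordered as strongest here. H3c6 (chr13:23562336-23562635, minus strand) was the strongest of the H3 genes and H4c3 (chr13:23698409-23698708, minus strand) of the H4 genes. The others are H1f6 (chr13:23695561-23695860, plus strand), H2bc23 (chr13:21810150-21810449, minus strand) and H2bc1 (chr13:23934107-23934406, minus strand), whose promoters lay under no peak in any library.
H2bc11: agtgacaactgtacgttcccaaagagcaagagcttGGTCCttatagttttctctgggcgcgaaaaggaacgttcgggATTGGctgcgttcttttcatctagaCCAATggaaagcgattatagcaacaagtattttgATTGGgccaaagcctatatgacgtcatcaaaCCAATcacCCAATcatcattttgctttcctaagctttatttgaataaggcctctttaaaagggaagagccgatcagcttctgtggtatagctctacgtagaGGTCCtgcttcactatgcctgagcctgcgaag
H3c6: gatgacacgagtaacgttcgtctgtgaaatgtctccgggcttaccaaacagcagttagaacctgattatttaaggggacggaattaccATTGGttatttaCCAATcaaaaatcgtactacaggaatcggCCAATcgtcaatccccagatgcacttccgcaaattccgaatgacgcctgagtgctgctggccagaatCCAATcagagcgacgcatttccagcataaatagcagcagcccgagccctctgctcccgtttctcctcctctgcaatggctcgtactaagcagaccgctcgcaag
H4c3: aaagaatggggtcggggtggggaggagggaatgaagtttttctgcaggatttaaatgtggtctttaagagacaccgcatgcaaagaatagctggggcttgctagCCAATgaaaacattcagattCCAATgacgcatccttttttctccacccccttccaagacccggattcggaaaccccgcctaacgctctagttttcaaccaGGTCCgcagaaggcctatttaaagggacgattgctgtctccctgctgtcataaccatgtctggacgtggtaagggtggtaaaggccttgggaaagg
H1f6: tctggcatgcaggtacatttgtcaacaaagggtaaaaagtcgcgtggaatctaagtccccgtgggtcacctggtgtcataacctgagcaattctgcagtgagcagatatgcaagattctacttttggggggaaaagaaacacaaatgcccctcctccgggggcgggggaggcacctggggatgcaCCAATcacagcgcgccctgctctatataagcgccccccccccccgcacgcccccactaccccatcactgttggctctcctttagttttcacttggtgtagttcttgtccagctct
H2bc23: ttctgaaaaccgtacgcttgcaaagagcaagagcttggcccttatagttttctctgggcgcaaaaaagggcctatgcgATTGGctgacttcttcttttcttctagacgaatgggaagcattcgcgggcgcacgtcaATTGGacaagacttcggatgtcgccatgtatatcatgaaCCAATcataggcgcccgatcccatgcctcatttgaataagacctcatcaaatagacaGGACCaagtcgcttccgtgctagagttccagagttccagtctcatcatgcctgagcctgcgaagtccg
H2bc1: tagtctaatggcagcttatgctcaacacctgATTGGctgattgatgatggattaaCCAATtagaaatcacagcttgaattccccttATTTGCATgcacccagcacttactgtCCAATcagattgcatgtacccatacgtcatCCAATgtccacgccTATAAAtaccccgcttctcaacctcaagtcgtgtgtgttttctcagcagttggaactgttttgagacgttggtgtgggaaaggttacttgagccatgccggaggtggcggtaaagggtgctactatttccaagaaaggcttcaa

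The CCAAT box was present in every promoter entry of an H1, H2A, H2B or H3 gene (6, 18, 17 and 10 entries). Among H4 promoters it was in 3 of 12, or 25.0%, against 38.2% of all 21262 promoters of the table. The H4-element core showed the other pattern, with 11 of 12 H4 promoters (91.7%) against 49.0% of all promoters. The H4 promoter without it was that of H4c1. The octamer was in 7 of 17 H2B promoters, always on the strand of the gene, against 1.66% of all promoters on either strand. It was also in 7 of 18 H2A promoters, always on the opposite strand. Promoter windows of head-to-head genes overlap, so the same site can count for both genes. Both promoters held the octamer at H2ac12 and H2bc12, at H2ac8 and H2bc8, and at H2ac1 and H2bc1. The TATA box was in 55.6% of the histone entries and 12.6% of all promoters. The promoter of H2bc1, printed above, holds the TATA box, the CCAAT box and the octamer, and that of H3c6 holds the CCAAT box of these 3.

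**Figure D1:**
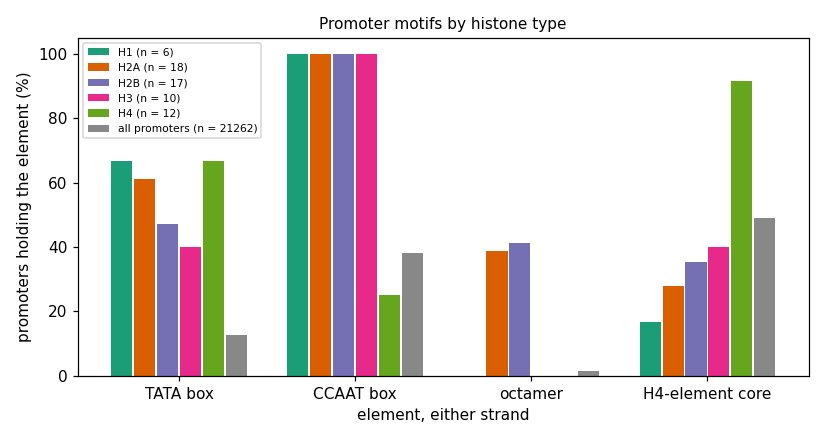
Share of promoters (percent, y axis, from 0) holding each of 4 sequence elements on either strand (x axis), for each histone type and for all 21262 promoters of the table. CCAAT is in 100% of H1, H2A, H2B and H3 promoters and in 25.0% of H4 promoters, while the H4-element core is in 91.7% of H4 promoters.

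Histone genes were open in nearly every library of both groups. A peak lay within 1 kb of 61, 62 and 62 of the 67 genes in the DTx libraries, against 63, 63 and 62 in the untreated libraries. The means were 61.7 ± 0.58 genes in DTx and 62.7 ± 0.58 in untreated libraries (SD, n = 3 each), a difference of -1 gene. The direction of this difference depended on the distance allowed, with 57.3 genes in DTx and 57.0 in untreated libraries where a peak had to touch the gene itself. In bulk libraries, fewer open cells and less open chromatin per cell cannot be told apart. Over all protein-coding genes, the share with a peak within 1 kb was 65.4% ± 2.49 in DTx and 63.6% ± 2.82 in untreated libraries (SD, n = 3 each).

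Counted over all 6 libraries, 61 of the 67 histone genes (91.0%) had a peak within 1 kb in every library, where the background over all protein-coding genes was 58.9%. A further 4 genes had a peak in none, against a background of 30.5%, and 2 genes had one in some libraries only. The genes are not independent of each other here, because neighbours share peaks. The peaks near histone genes merged into 43 regions, of which 41 were present in all 6 libraries and 23 touched the windows of at least 2 histone genes. The longest region, of 3134 bp, joined H4c1, H3c1 and H1f1.

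The peaks at histone genes stood high within their own list. Strength is given as the within-list percentile of the authors' −log10 q, where 100 is the strongest peak of that library, taken at the strongest peak within 1 kb. The median percentile of histone genes with a peak was 92.6, 92.3 and 93.1 in the DTx libraries and 84.6, 89.1 and 94.9 in the untreated libraries. The same median over all protein-coding genes with a peak was 81.4, 83.6 and 84.1 in the DTx libraries and 78.6, 80.2 and 85.5 in the untreated libraries. In each of the 6 libraries the histone median stood above the median of all genes. Above the 90th percentile lay 38, 43 and 40 histone genes in DTx libraries and 23, 29 and 44 in untreated libraries. Untreated 3 thus held the most and untreated 1 the fewest. Of histone genes with a peak this was 62.3%, 69.4% and 64.5% in DTx and 36.5%, 46.0% and 71.0% in untreated libraries. Over all protein-coding genes with a peak the share was 30.9%, 35.1% and 35.4% in DTx and 27.5%, 29.2% and 37.5% in untreated libraries. Ranks from lists of different lengths show no change, so no difference between the groups is read from these percentiles.

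The strongest peaks at histone genes were longer than the median peak of their list. Only the strongest peak near each histone gene was used, and a shared peak was counted once. Its median length was 850.5, 1171 and 1171 bp in DTx libraries and 1169, 1122 and 1000 bp in untreated libraries. Peaks of the whole list had a median of 470, 480 and 476 bp in DTx libraries and 511, 525 and 543 bp in untreated libraries. The whole list includes weak peaks and peaks far from genes. The length of the strongest peak per gene was not taken over all genes, so length is not shown to be particular to histone genes. The fold enrichment that the authors' peak caller gave to the strongest peaks at histone genes had a median of 11.4, 5.50 and 5.31 in DTx libraries. In untreated libraries it was 5.07, 5.37 and 12.0. The 2 high medians belong to DTx 1 and untreated 3, the lists in the layout of the caller's narrow mode. Over all peaks those 2 lists were also high, at 9.17 in DTx 1 and 8.66 in untreated 3, against 4.51 to 5.08 in the other 4.

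**Figure D2:**
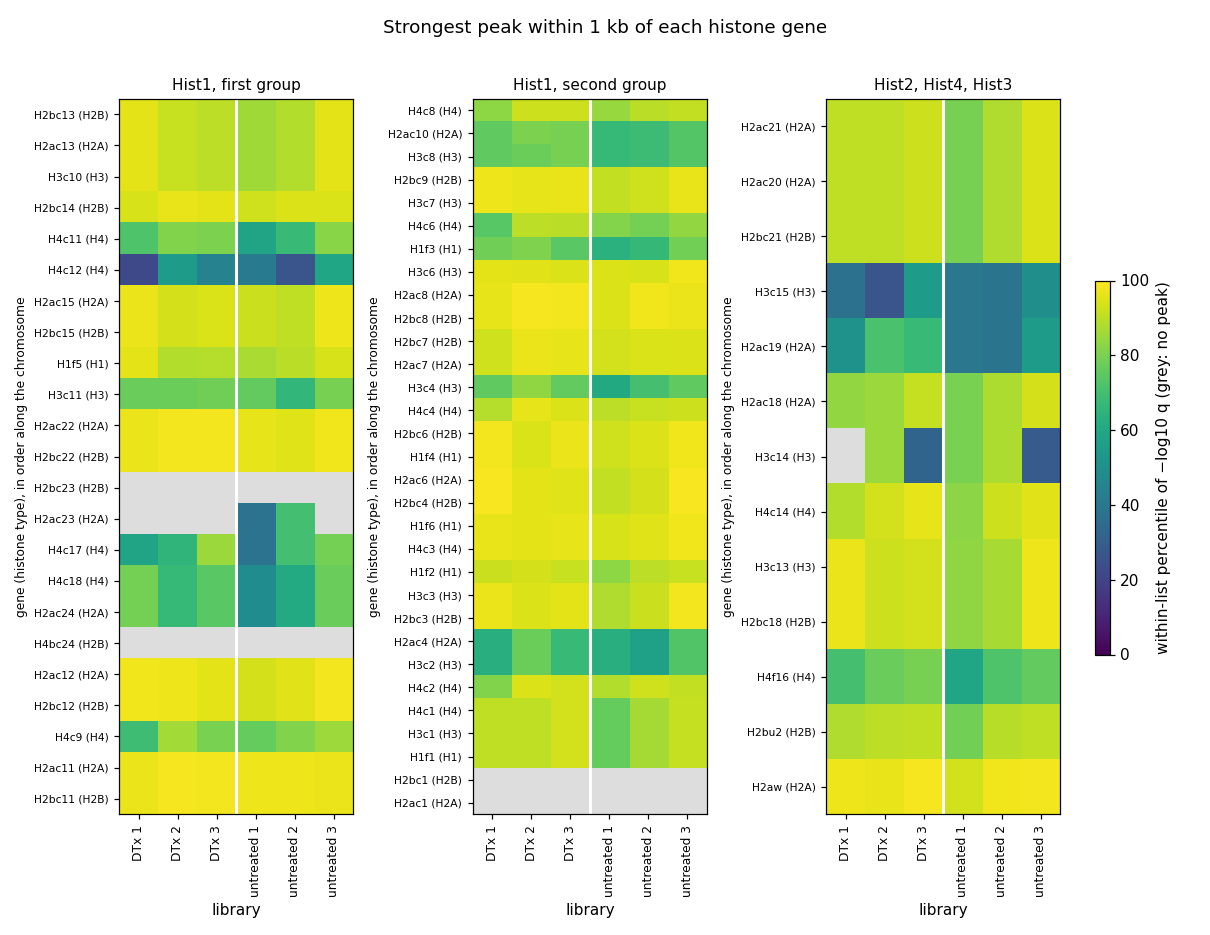
Within-list percentile of −log10 q (colour, 0 to 100) of the strongest peak within 1 kb of each histone gene (rows, in chromosome order), in the 3 DTx libraries (left of each white line) and the 3 untreated libraries (right); grey marks no peak. H2bc23, H4bc24, H2bc1 and H2ac1 are grey in all 6 libraries, H2ac23 is coloured in untreated 1 and 2, and H3c14 is grey in DTx 1.

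By histone type, H2B genes had the highest median percentile in each of the 6 libraries. The lowest median was that of H4 in DTx 1 and untreated 1 and 2, and that of H3 in DTx 2 and 3 and untreated 3. Taking each gene's median over its libraries, the median over genes was 95.3 for H2B, 91.0 for H1, 90.8 for H2A, 85.3 for H3 and 82.6 for H4. The H1 median rests in part on peaks of neighbours. H1f6 (96.2) was scored by the peak of H4c3. H1f1 (90.6) was scored by the peak of H4c1 and H3c1 in the DTx libraries and untreated 3. The order of H1 and H2A is therefore not read from these medians. The ranges overlapped widely, and H4 genes alone reached from 42.6 to 96.2. Every H1 and H4 gene had a peak within 1 kb in all 6 libraries, with 6 of 6 and 13 of 13 genes, peaks of neighbours included. The counts were 16 of 18 for H2A, 15 of 18 for H2B and 11 of 12 for H3. By cluster, 49 of 54 Hist1 genes, 9 of 10 Hist2 genes, both Hist3 genes and the Hist4 gene had a peak in every library.

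**Figure D3:**
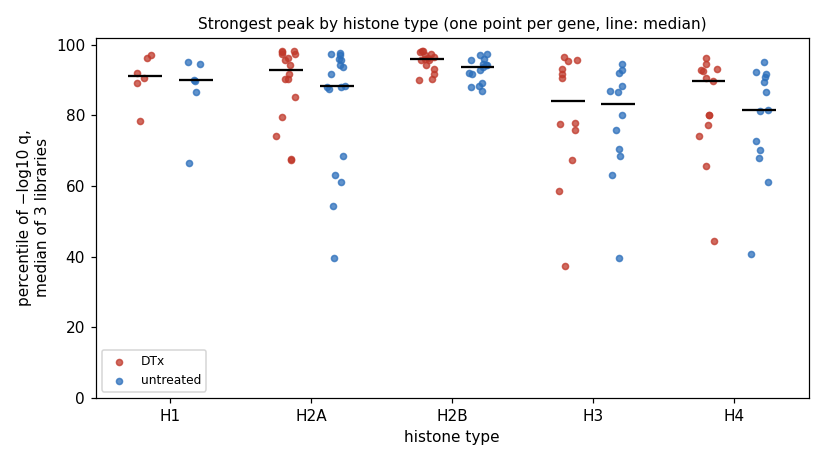
Percentile of −log10 q of the strongest peak (y axis, median over the 3 libraries of a group), 1 point per histone gene, DTx left of untreated for each histone type (x axis), with the median as a line. H2B genes sit highest in both groups, and H3 and H4 genes spread from below 45 to above 90.

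H2A and H2B are the core histones that form dimers at the outside of the nucleosome. Of their genes with a known start site, 20 stood head to head in 10 pairs. The start sites of a pair lay 164 to 281 bp apart, with a median of 204.5 bp. In 7 of the 10 pairs a single peak covered both start sites in all 6 libraries. The other 3 were H2bc23 with H2ac23, H2ac24 with H4bc24 (an H2B gene, Hist1h2br, despite its current symbol), and H2bc1 with H2ac1, and there no library had a peak over both start sites. Within H2B, the median percentile was 96.6 for genes in pairs with a peak and 94.9 for genes outside pairs. Within H2A it was 94.5 in pairs and 88.3 outside. H2bc21 and H2bc4 had no known start site, so any pair with the adjacent H2ac20 and H2ac6 was not counted. H2ac20 and H2ac6 therefore stand among the H2A genes outside pairs. A peak in all 6 libraries was present at 75.0% of the genes in pairs and 97.6% of the 42 other genes with a known start site, which are of all 5 types.

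The pair H2ac11 and H2bc11 had the strongest peak of the Hist1 cluster by its lowest percentile over the libraries. Its percentile was 97.2, 98.5 and 98.4 in DTx libraries and 97.6, 97.5 and 97.0 in untreated libraries. The fold enrichment of that peak was 15.1, 7.82 and 7.53 in DTx libraries and 7.14, 7.39 and 13.6 in untreated libraries. The peak stood near the top of every list, and its length varied little, at 734, 703 and 747 bp in DTx and 709, 752 and 933 bp in untreated libraries. The merged region, chr13:22042633-22043565, contains the whole H2bc11 promoter printed above.

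In Hist3, H2aw, which encodes an H2A protein, had percentiles of 97.3, 96.7 and 98.5 in DTx libraries and 93.1, 97.7 and 98.1 in untreated libraries. H3c13 and H2bc18, an H3 and an H2B gene at the end of the Hist2 cluster, shared a peak at percentiles 97.0, 92.3 and 93.1 in DTx libraries and 83.5, 86.8 and 97.6 in untreated libraries. The values of the groups overlapped in both cases. H4f16, the only Hist4 gene, was weaker, at 70.6, 77.2 and 79.4 in DTx libraries and 58.8, 72.6 and 75.9 in untreated libraries.

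Among the other types, H3c6 had percentiles of 95.7, 95.5 and 94.6 in DTx libraries and 94.6, 94.0 and 97.7 in untreated libraries. The peak of H4c3 stood at 96.5, 96.1 and 96.4 in DTx libraries and 93.97, 95.04 and 97.7 in untreated libraries. Both genes stood near the top of every list, and the values of the groups overlapped. At the low end, H4c12 had 21.9, 54.8 and 44.5 in DTx libraries and 40.7, 26.5 and 58.9 in untreated libraries. H3c15 in Hist2 had 37.3, 26.5 and 54.8 in DTx libraries and 39.7, 38.6 and 49.8 in untreated libraries.

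Most histone start sites lay under a peak. At the start site itself, 49, 52 and 52 of 62 histone genes lay under a peak in DTx libraries, and 50, 51 and 52 in untreated libraries, which is 79.0% to 83.9%. Over 17491 protein-coding genes with a promoter entry of known start the share was 46.1% to 51.8% over the 6 libraries. The position of the peak differed between genes. For the 55 histone genes whose promoter window was under a peak, the strongest peak within 1 kb of the start site was taken. Its midpoint, as a median over libraries, lay within 250 bp of the site at 29 genes and beyond 400 bp at 21. At some genes that peak was a neighbour's. In DTx 1 the peak taken for H1f1 ran from -2697 to -836 bp of its start site. The midpoint lay upstream at 12 of 13 H2B, 10 of 15 H2A and 8 of 10 H3 genes. It lay downstream at 10 of 12 H4 and 4 of 5 H1 genes. These counts include such peaks of neighbours. H2bc6 had more than 1 promoter entry, and its midpoints at both were pooled. They lay from -796.5 to -657.5 bp of 1 start site and from 285 to 394.5 bp of the other. The pooled median counted H2bc6 as upstream and within 250 bp, although no library had a midpoint within 250 bp of either site. The wider promoter window was under a peak in all 6 libraries for 50 of the 62 genes, where the background over 21262 entries was 45.8%. It was under a peak in no library for 7 genes, where the background was 45.7%.

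**Figure D4:**
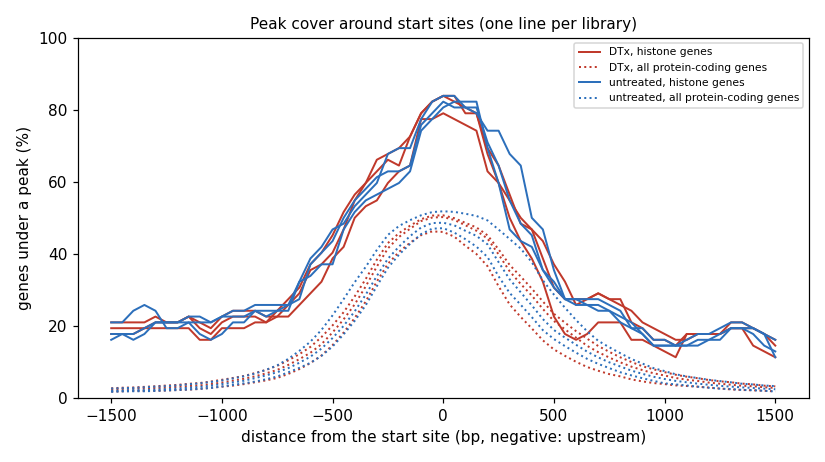
Share of genes whose base at each distance from the start site (x axis, bp) lies under a peak (y axis, percent), 1 line per library, for histone genes (solid) and all protein-coding genes (dotted), DTx in red and untreated in blue. At the start site the histone lines lie between 79.0% and 83.9% and the lines of all genes between 46.1% and 51.8%, with both groups mixed in each bundle.

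The promoters without a peak included those of 3 genes known from the testis. H1f6 encodes H1t, the linker histone of spermatocytes, and H2ac1 and H2bc1 encode TH2A and TH2B of male germ cells. No library had a peak within 1 kb of H2ac1 or H2bc1, and none had a peak over the promoter window of H1f6. H1f6 nonetheless had the highest percentile among H1 genes by the 1 kb rule, because the peak counted there was that of its neighbour H4c3 (merged region chr13:23697510-23698826). The 4 somatic H1 genes with a promoter window under a peak in every library were H1f1, H1f2, H1f3 and H1f4, and the promoter of H1f5 was under a peak in DTx 2 and 3 and in untreated 1 and 3.

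The remaining promoters with no peak lay in a duplicated stretch of Hist1. The promoters of H2bc23 and H4bc24 are identical in 300 of 300 bases, so the H2bc23 sequence above stands for both, and neither gene had a peak in any library. In the same stretch the promoters of H4c17 and H4c18 are identical in 298 of 300 bases, or 99.3%. The H4c17 promoter was under a peak in untreated 1 and 2 and the H4c18 promoter in all 6 libraries. Reads from such near-identical copies cannot be assigned to 1 copy with confidence, and the treatment of reads that mapped to several places was not given in the sources used here, so values of H2bc23, H4bc24, H2ac23, H2ac24, H4c17 and H4c18 are uncertain. The promoters of H3c15 and H3c14 in Hist2 were 94.7% identical and carry the same uncertainty, as do those of H4c11 and H4c12, which were 91.7% identical. Of 1891 pairs of histone promoters, 4 were at least 90% identical, and the median identity was 58.3%. The fixed windows were aligned over their whole length, so copies whose windows are shifted can be missed. H2ac23 and H2ac24 share a long stretch at different positions of their windows and are not among the 4.

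The only gene whose number of libraries differed by at least 2 between the groups was H2ac23, an H2A gene of that duplicated stretch. It had a peak within 1 kb in 0 of 3 DTx libraries and in untreated 1 and 2, at percentiles 38.3 and 70.2. Over all protein-coding genes, 0.0823% had a peak in at least 2 more untreated than DTx libraries. No histone gene had a peak in at least 2 more DTx than untreated libraries, where the background was 1.19%, or in 3 of 3 DTx and 0 of 3 untreated libraries, where it was 0.096%. The peak counted was that of H4c17, which was present in all 6 libraries. Its near edge lay at position 21811984, 21812003 and 21811955 in DTx libraries, against 21811749, 21811735 and 21811955 in untreated libraries, so it came within 1 kb of H2ac23 in untreated 1 and 2 alone. The H2ac23 promoter was under no peak in any library.

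H3c14, an H3 gene of Hist2, was the other gene with a peak in some libraries. It had none in DTx 1, percentiles of 85.1 and 32.2 in DTx 2 and 3, and 80.1, 87.6 and 28.9 in untreated libraries. The values of 85.1, 80.1 and 87.6 are those of the peak at its neighbour H2ac18. In untreated 1 and 2 that peak ended at -462 bp of the H3c14 start site. The values of 32.2 and 28.9 came from separate, shorter peaks. The H3c14 promoter was under a peak in DTx 2 and untreated 3. Over all genes, 1.73% had a peak in more untreated than DTx libraries and 6.18% in more DTx than untreated libraries. Among the histone genes H2ac23 and H3c14 were in more untreated libraries, and none was in more DTx libraries.

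Cover by peaks did not pass the test for a difference between DTx and untreated libraries at any histone gene. The measure was the number of bases under peaks in the gene and 1 kb on each side, with each list reduced to its 36760 strongest peaks, fitted with limma on log2(bases + 100) with the calling mode as a covariate. Of 13601 genes tested, 0 were higher and 0 lower at an adjusted p of 0.05, a background of 0.0% in each direction, and so 0 of the 61 histone genes tested. At an unadjusted limma p under 0.05 there were 386 genes (2.84%), of which 1 was a histone gene. H2bc23, H4bc24, H2bc1, H2ac1, H2ac23 and H1f6 were under the minimum mean of 100 covered bases and were not tested. The median log2 difference was -0.00137 over the 61 histone genes and -0.0108 over all genes. For 55 of the 61 the difference lay within 0.2 of 0, with a median SE of 0.155, and 30 were above 0 and 31 below.

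The lowest p belonged to H1f1, a somatic linker histone gene. Its window had 467, 518 and 506 covered bases in DTx libraries and 1183, 1236 and 617 in untreated libraries, so the groups did not overlap. The log2 difference was -0.84 ± 0.21 (SE), with an unadjusted limma p of 0.00792 and a Benjamini-Hochberg adjusted p of 0.941. Untreated 1 and 2 had there a single peak of 2854 and 2926 bp that ran from H4c1 and H3c1 into H1f1, while the 3 DTx libraries and untreated 3 had 2 separate peaks. The narrow-mode lists, DTx 1 and untreated 3, had 467 bases in DTx 1 and 617 in untreated 3.

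H2ac19 and H3c15, neighbours in Hist2, showed the same kind of difference. H2ac19 had 801, 458 and 832 covered bases in DTx libraries and 1252, 1373 and 890 in untreated libraries, a log2 difference of -0.69 ± 0.28 with a limma adjusted p of 1.00. H3c15 had 354, 0 and 378 covered bases in DTx libraries and 664, 770 and 415 in untreated libraries, a log2 difference of -1.33 ± 0.74 with a limma adjusted p of 1.00. The 0 at H3c15 and the 458 at H2ac19 in DTx 2 came from the reduction of the list. Peaks of its deposited list covered 331 bases at H3c15 and 789 at H2ac19. The H3c15 difference was -0.62 on the deposited lists and -0.52 without DTx 2. The H2ac19 difference was -0.47 on the deposited lists and -0.40 without DTx 2. In untreated 1 and 2 a single peak of 1252 and 1373 bp joined the 2 genes, and in the deposited lists of the other 4 libraries H2ac19 had 2 peaks.

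In the other direction the smallest p values belonged to H4f16, H3c2 and H2bc15. H4f16 had 1115, 1171 and 1171 covered bases in DTx libraries and 946, 962 and 1168 in untreated libraries, a log2 difference of 0.16 ± 0.14. H2bc15, an H2B gene paired with H2ac15, had 1505, 1526 and 1546 in DTx libraries and 1204, 1443 and 1492 in untreated libraries, a log2 difference of 0.14 ± 0.15. H3c2 had 910, 1161 and 1180 in DTx libraries and 1169, 1161 and 642 in untreated libraries, a log2 difference of 0.15 ± 0.15. The limma adjusted p was 1.00 for each of these 3 genes, and the groups overlapped at H4f16 and H3c2.

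Every DTx library was below every untreated one in covered bases at 3 of the 61 histone genes (H1f1, H2ac19 and H3c15), where the background over the 13601 genes was 3.1%. Every DTx library was above every untreated one at 4 of 61 (H2bc15, H2ac24, H4c8 and H4c3), where the background was 1.43%. At H2ac24 the values were 189, 191 and 189 in DTx libraries and 187, 186 and 186 in untreated libraries, a gap of 2 bases. These bases belonged to the edge of the peak at its neighbour H4c18, and the H2ac24 promoter was under no peak in any library. H4c8 had 1601, 1532 and 1548 in DTx libraries and 1465, 1459 and 1482 in untreated libraries. H4c3 had 1263, 1317 and 1305 in DTx libraries and 1169, 1160 and 1225 in untreated libraries. The log2 differences of these 4 genes lay between 0.02 and 0.14.

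**Figure D5:**
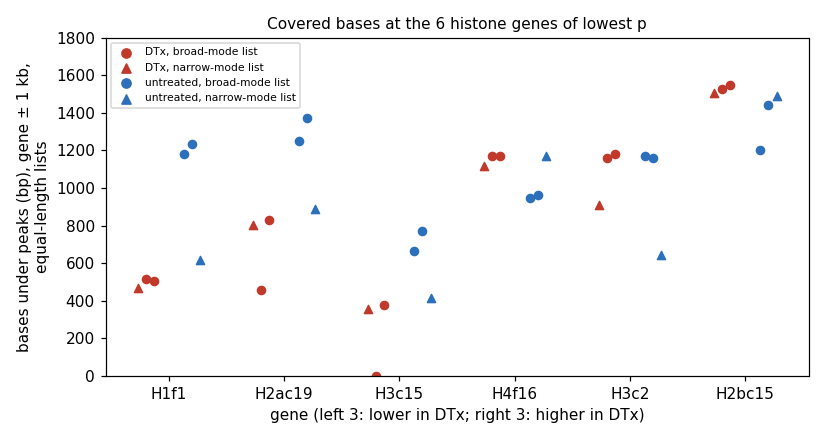
Bases under peaks (bp, y axis, from 0) within 1 kb of the 6 histone genes of lowest limma p, 3 in each direction, in DTx (red, left) and untreated (blue, right) libraries; triangles mark lists in the narrow-mode layout. At H1f1 the DTx libraries lie between 467 and 518 bp and the untreated libraries between 617 and 1236 bp.

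The genes that serve the histone genes were open in all libraries. All 17 genes of histone transcription and mRNA processing had a peak within 1 kb in each of the 6 libraries, where the background is 58.9%, among them Npat, the organiser of the histone locus body, at a median percentile of 99.3 and Slbp, whose product binds the stem-loop, at 93.2. The same held for 14 of 14 histone chaperone and deposition genes and 20 of 20 genes of DNA replication and S phase. Of 10 replication-independent histone genes, 8 had a peak in all 6 libraries. The exceptions were Macroh2a2, an H2A variant gene, with none, and H1f10, a linker histone gene, with a peak in 5. As no gene passed the limma test, none of these genes was called different between DTx and untreated libraries.

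The libraries had peaks at genes of B cells and also at some markers of other cell types. The B cell factor genes Pax5 and Ebf1, and Cd93, which encodes a marker of the sort, had a peak within 1 kb in all 6 libraries, at median percentiles of 88.1, 98.1 and 76.7. A peak in all 6 libraries was found at 1 of 5 T cell markers (Zap70), 2 of 6 myeloid and 1 of 6 erythroid (Klf1) markers. The same held for 2 of 6 natural killer and 3 of 6 stromal and endothelial markers. The background over all protein-coding genes was 58.9%. Of these markers, Cdh5, Klf1 and Pecam1 stood at median percentiles of 90.8, 86.7 and 84.8, above that of Cd93. The others with a peak in all 6 libraries were lower, from 27.6 at Zap70 to 71.1 at Klrb1c. Cd3e and Cd8a of T cells, Lyz2 and S100a8 of myeloid cells, and Gata1 and both globin genes of erythroid cells had a peak in no library. Lists held 44661, 56266 and 60811 peaks in DTx libraries and 36760, 42504 and 56503 in untreated libraries, and the number of reads behind them is unknown.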

How the data were processed

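ATAC-seq peak lists of 6 libraries (3 DTx, 3 untreated) were used, 1 list per library. Per the submitters' processing notes, the tools were Trim Galore 0.4.3 (trimming), Bowtie2 2.3.2 (alignment, mm10) and MACS2 2.1.1 (peaks). Tn5 shifting, removal of duplicates, treatment of reads that map to several places and read totals were not given in the sources used here. Per the file headers, the deposited lists give each peak's length, pileup (a coverage signal) and fold enrichment (a ratio). The −log10 p-value and −log10 q-value columns have damaged headers in the deposited lists and were told apart by column order and range. All of these are values the authors' caller gave per peak; they served to describe, rank or reduce a list. DTx 1 and untreated 3 have a summit column, the layout of narrow mode; the other 4 lists have the layout of broad mode.

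Mitochondrial peaks, 2 per list, were dropped. Percentiles are ranks of −log10 q within the whole list. A peak counted for a gene where at least 1 bp lay within 1 kb of it (1-based, mm10). Genes, synonyms and promoters are RefSeq's for GRCm38.p6; the gene table has no exons, so exons and UTRs were not told apart. For limma 3.58.1 (R 4.3.3, trend and robust, tested on simulated data), bases under the 36760 strongest peaks of each list were counted within 1 kb of each gene, log2(bases + 100) was fitted on group and calling mode, genes with a mean of at least 100 bases were kept, and p was adjusted by Benjamini-Hochberg at 0.05 over all genes tested. A fold on that scale understates differences of low values. The rest was run in Python 3.11.15 with pandas 2.3.3 and Biopython 1.88. Named genes are those differing by at least 2 libraries between groups, the highest lowest percentile of each cluster and type, those with a peak in no library or in some, and the 3 of lowest p in each direction; H4c12, H4c8, H2ac24, H4c17 and H4c18 were added after their values were seen. Genes and lists were chosen with earlier results of these data known. The B cell marker list is not reported here in full. Alternatives were other windows, pseudocounts, filters and list lengths, the fit without calling mode, a replicate block and leaving out each library.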

Additional observations from a re-analysis of the deposited data

How the results depend on the processing

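The difference in the number of histone genes with a peak (-1 gene, DTx minus untreated) became 0.333 where a peak had to touch the gene (57.3 genes in DTx and 57.0 in untreated libraries), 0 within 5 kb (65 in DTx and 65 in untreated libraries) and 1.33 where the peak's midpoint had to lie within 1 kb (59.3 in DTx and 58.0 in untreated libraries), so no direction holds across these definitions; the cause was not tested. It was -1.33 with lists of equal length and -1 with peaks of −log10 q of at least 5, with broad-mode lists alone (62 in DTx and 63 in untreated libraries) and with narrow-mode lists alone (61 in DTx 1 and 62 in untreated 3). Without 1 library it ranged from -1.33 to -0.667. No histone gene passed the limma test under any of 14 alternatives. The 6 genes of lowest p had a lowest limma adjusted p of 0.198 under them. These 6 were chosen by p and direction in these same data, and several alternatives gave identical differences. All 84 of their values kept direction, which is therefore no independent support. Their sizes moved more: H3c2 was 0.0062 without DTx 1 or untreated 3 (0.15 with all), H2bc15 was 0.053 without untreated 1 (0.14 with all), and H2ac19 was -0.40 without DTx 2 (-0.69 with all). H3c15 was -0.52 without DTx 2 and -1.90 without DTx 1 or untreated 3 (-1.33 with all), and H1f1 was -0.27 with whole peak lengths (-0.84 with bases in the window). Without the calling mode term 3 genes of the genome were lower in DTx, against 0 with it, none of them a histone gene; in the other alternatives there were 0. Leaving out DTx 1 or untreated 3 moved the median log2 difference of all genes to 0.15 and that of histone genes to 0.05, with 52 of 61 then above 0, and 5 histone genes had an unadjusted limma p under 0.05. Replicate numbers are shared between the groups. Same-numbered libraries deviated together with correlations of 0.332, 0.0388 and 0.176, and 2 of 3 were best with their own number. With 3 libraries a group this cannot settle whether the numbers pair the libraries. With the replicate as a block the count difference was again -1 and 0 genes passed in limma (772 genes had an unadjusted p under 0.05). Depth is unknown, so a gene without a peak is one with no call at these list lengths, and 3 libraries a group limit every comparison.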

Other observations

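The span of the Hist1 cluster also contains 50 protein-coding genes that are not histone genes, and most of these had no peak in the same libraries. Of the 50, 10 had a peak within 1 kb in all 6 libraries and 39 had none. The 36 vomeronasal receptor genes (Vmn1r), which are expressed in sensory neurons of the vomeronasal organ, were all among the 39. They lie between positions 22087878 and 23250323, in the gap between the groups of Hist1 histone genes, not among them. Trim38 had a peak in 3 of 3 DTx and 2 of 3 untreated libraries. Zfp322a, a zinc finger gene, had the highest percentile of the 10, with a median of 93.6, and Hfe, a regulator of iron uptake, had a median of 70.1.

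Of 4 histone pseudogenes or non-coding histone entries of the table, H2bu1-ps, H2ac14 and H2ac5-ps had a peak within 1 kb in all 6 libraries. H2bu1-ps lies next to H2aw and had the same percentiles, 97.3, 96.7 and 98.5 in DTx libraries and 93.1, 97.7 and 98.1 in untreated libraries. H2ac14 likewise had the percentiles of H2bc14, and H2ac5-ps those of H3c3 and H2bc3. The peaks counted at these entries are thus the ones already counted for histone genes. H2af-ps2, outside the clusters on chromosome 13, had percentiles of 9.34, 17.4 and 16.9 in DTx libraries, no peak in untreated 1, and 6.21 and 32.3 in untreated 2 and 3.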
